A study of Mus musculus with 6 samples.

Results

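Glucocorticoids act through the glucocorticoid receptor, a steroid-activated transcription factor that chaperones hold in the cytoplasm until hormone binds. The receptor then enters the nucleus and raises or lowers transcription of its target genes. In macrophages it is known for damping inflammatory genes and for raising a set of feedback, signalling and metabolic genes. The genes described here are 10 classical targets that glucocorticoids induce in many tissues: Fkbp5, Tsc22d3, Anxa1, Klf9, Cebpd, Zbtb16, Sgk1, Irs2, Rgs2 and Glul. They were taken from the 55421 genes of the deposited count table by gene symbol, and each of the 10 symbols matched 1 row. The list was chosen by the rise of Fkbp5 in these same wells, so the values of Fkbp5 are given as a description with no test.

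The conditioned-medium group held 3 wells of wild-type mouse bone marrow-derived macrophages kept for 24 h in 50% conditioned medium, that is, LL-2 Lewis lung carcinoma supernatant mixed with an equal volume of fresh RPMI-1640 per the labels' protocols. The untreated group held 3 wells of macrophages of the same genotype in RPMI-1640 without supernatant. The fresh medium of both groups carried fetal bovine serum at 10%, penicillin and streptomycin, and macrophage colony-stimulating factor (M-CSF) at 20 ng/mL, and the labels name no added steroid. Products of the tumour cells, conditioning as such and dilution of the fresh medium cannot be told apart. The labels do not say whether each well had its own mouse, so the p-values rest on a spread between wells that may be technical.

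The libraries held 28447825 to 30040682 counts with conditioned medium and 24179548 to 25916709 counts without it. Of 7 macrophage markers, 3 rose (Csf1r, Itgam and Mertk) and 3 fell (Adgre1, Cd68 and Fcgr1), and Lyz2, the macrophage lysozyme gene, stood at 47397 to 51639 CPM (counts relative to all counts of a library) with conditioned medium and 41985 to 50243 CPM without it. Epithelial and tumour cell markers summed to 0.585 to 1.12 CPM with conditioned medium and 0.794 to 1.20 CPM without it. Of the 4, Epcam, Krt8 and Krt18 were too low to test. Epcam and Krt8 had 0 counts in every untreated library, but Krt8 averaged only 0.167 counts a library over all 6 libraries. A library with 0 counts of a gene allows up to 3 counts, so no difference between the groups is read from this.

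The receptor binds DNA at a pair of inverted half-sites, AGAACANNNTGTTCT in its fullest form, where N is any base. This sequence, its central core ACANNNTGT and the half-site AGAACA were searched on both strands in RefSeq windows of 300 bases around annotated start sites (GRCm38.p6). The full motif holds the core and both half-sites, so a full match also counts for the shorter motifs. The table held 15 windows for 8 of the genes, and Cebpd and Zbtb16 had no entry. The stretches below are shown because they are the full and core matches found, with the half-site of Tsc22d3. Capitals mark the match, and each stretch reads 5′ to 3′ on the strand of the gene.
Sgk1, full site, chr10:21993671-21993745, plus strand: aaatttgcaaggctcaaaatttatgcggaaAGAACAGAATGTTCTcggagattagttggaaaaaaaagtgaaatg
Sgk1, core, chr10:21978515-21978583, plus strand: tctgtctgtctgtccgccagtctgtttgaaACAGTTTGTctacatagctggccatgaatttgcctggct
Glul, core, chr1:153899874-153899928, plus strand: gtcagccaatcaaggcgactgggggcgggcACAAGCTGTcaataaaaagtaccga
Tsc22d3, half-site, chrX:140600672-140600737, minus strand: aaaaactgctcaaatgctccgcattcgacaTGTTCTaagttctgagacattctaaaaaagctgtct

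The full site of Sgk1 lay 189 to 175 bases upstream of an annotated start site, within the span of Sgk1 and outside its exons. It was 1 of 3 such matches among 32851 windows, a share of 0.00913%. The core was found in 3 of the 15 windows, against 6.85% of all windows, and the half-site in 4 of the 15 (3 of Sgk1 and 1 of Tsc22d3), against 19.0% of all windows. The core of Glul lay 25 to 17 bases upstream of its start. The printed stretch around it overlaps annotated exons of Teddm2 and Mir8114, read for the whole stretch and not for the match alone. The single windows of Fkbp5, Klf9, Anxa1, Rgs2 and Irs2 held none of the 3 motifs. A match is a run of letters in a short window and was not measured as a binding site here.

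The target genes did not move as a block. Apart from Fkbp5, 4 of the other 9 rose with conditioned medium (Tsc22d3, Klf9, Glul and Cebpd), 3 fell (Sgk1, Anxa1 and Irs2), and 2 did not pass the test (Rgs2 and Zbtb16). Over all 13853 tested genes, 27.9% were called, 12.6% as higher and 15.2% as lower. Of all calls, 45.3% were higher with TMM scaling and 60.8% with the total count alone, and the 4 and 3 calls above held under both. Since the genes were chosen with results of these wells known, nothing is read from their share. All 10 passed the filter on low counts, and in all 10 the wells of the 2 groups did not overlap, as in 42.8% of all tested genes. The median log2 fold change of the 9 genes other than Fkbp5 was -0.12, against 0.01 over all tested genes. With Fkbp5, whose rise chose the list, it was 0.27, so its sign turns on that gene. Levels below are TMM-scaled CPM, a positive log2 fold change means higher with conditioned medium, SE is the standard error, and each adjusted p is that of edgeR's quasi-likelihood test with Benjamini-Hochberg adjustment over all tested genes, called under 0.05. In bulk wells, fewer cells of a type and less RNA per cell cannot be told apart.

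**Figure D1:**
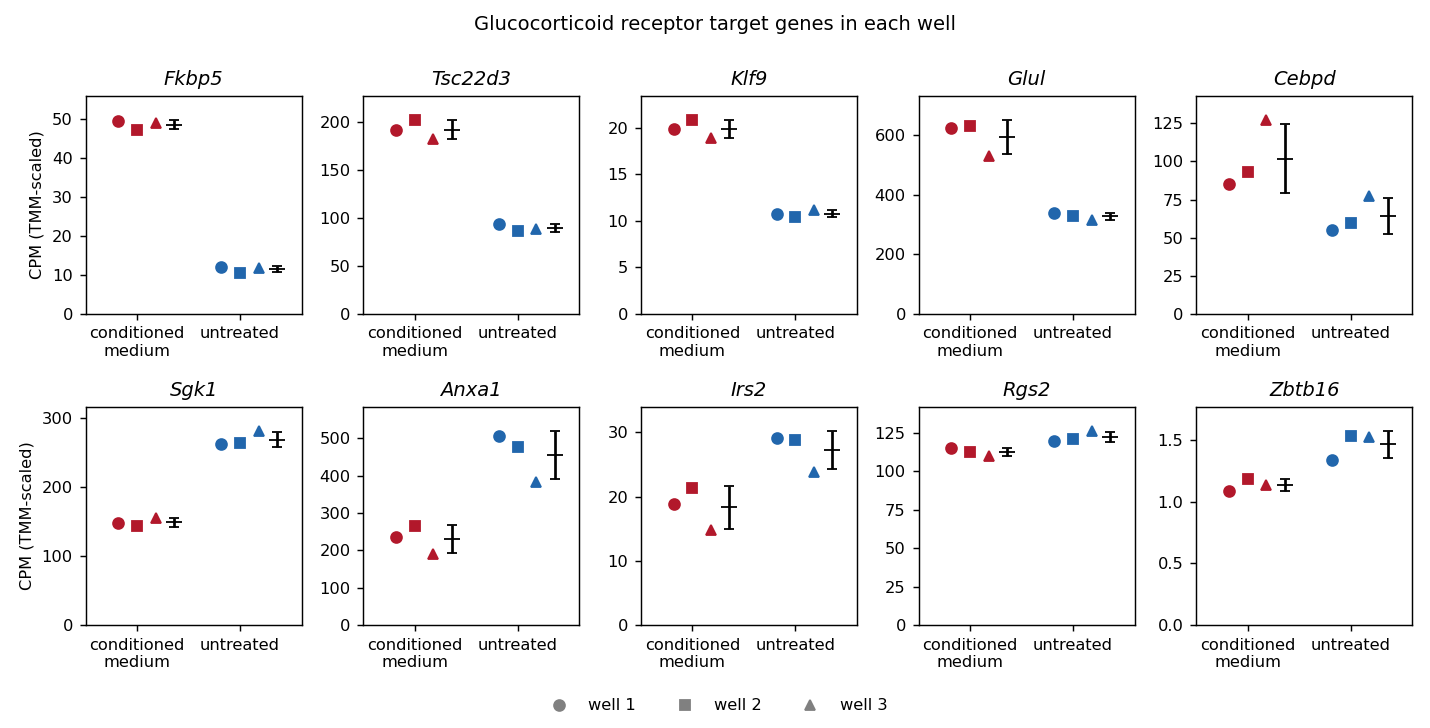
CPM of each of the 10 genes in every well (vertical axis from 0), with the conditioned-medium wells in red on the left of each panel and the untreated wells in blue on the right. Marker shapes give the well number and black bars the mean ± SD (n = 3 per group). The groups do not overlap in any panel, but the gap is wide for Fkbp5 (47.1 to 49.5 against 10.5 to 12.0 CPM) and narrow for Rgs2 (110.2 to 115 against 120.0 to 126 CPM).

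The first genes are feedback and anti-inflammatory effectors of the receptor. Fkbp5 encodes a co-chaperone that joins the receptor complex and lowers its affinity for hormone, which makes it a feedback gene (chromosome 17, 28399094 to 28517527, GRCm38). It had 49.5, 47.1 and 48.8 CPM in the conditioned-medium wells, against 12.0, 10.5 and 11.7 CPM in the untreated wells. The 3 conditioned-medium wells lay close together and far above every untreated well. The log2 fold change was 2.09, the largest of the 10 in size, and it is given with no test.

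Tsc22d3 encodes GILZ, a leucine zipper protein that restrains NF-kB and AP-1 (chromosome X, 140539528 to 140600659). It had 191, 202 and 182 CPM with conditioned medium, against 93.7, 85.8 and 88.7 CPM in untreated wells. Each conditioned-medium well was well above each untreated well. It rose 2.14-fold, a log2 fold change of 1.10 with an SE of 0.05 (adjusted p = 1.52e-06).

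Anxa1 encodes annexin A1, a phospholipid-binding protein that acts on formyl peptide receptors to limit leukocyte recruitment (chromosome 19, 20373428 to 20390944). It moved the other way, with 237, 265 and 189 CPM in conditioned-medium wells and 506, 477 and 383 CPM in untreated wells. In both groups the well numbered 3 was the lowest, and the groups still did not overlap. It was 1.98-fold lower, a log2 fold change of -0.98 with an SE of 0.13 (adjusted p = 0.00048).

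The next genes are transcription factors. Klf9, a Krüppel-like zinc finger factor induced early by glucocorticoids, had 19.8, 20.9 and 18.9 CPM with conditioned medium and 10.7, 10.4 and 11.2 CPM in untreated wells (chromosome 19, 23141226 to 23168134). The wells of each group lay within a narrow band. It rose 1.84-fold, a log2 fold change of 0.88 with an SE of 0.07 (adjusted p = 3.12e-05).

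Cebpd encodes C/EBP delta, a factor of the acute-phase and inflammatory response (chromosome 16, 15887286 to 15891031). It had 85.2, 93.2 and 127 CPM in conditioned-medium wells, against 55.3, 59.3 and 77.4 CPM in untreated wells. The well numbered 3 was the highest of each group, and the lowest conditioned-medium well lay just above the highest untreated well. It rose 1.59-fold, a log2 fold change of 0.67 with an SE of 0.16 (adjusted p = 0.0121). It no longer passed without untreated replicate 1, at an adjusted p of 0.0508, or without untreated replicate 2, at an adjusted p of 0.0574. These fits did not pair the wells. The replicate block takes wells of the same number as pairs, a pairing drawn from these same libraries and not from the labels. With it, the edgeR adjusted p of Cebpd was 9.35e-09 (SE 0.04), which is no separate support for the call. Of its exon length, 15.0% lies opposite exons of Spidr, a DNA repair gene that rose 1.21-fold (log2 fold change 0.27, adjusted p = 0.0180) at 20.6 ± 1.03 CPM with conditioned medium and 17.1 ± 0.960 CPM without it (SD, n = 3 each). The strand setting of the counting is not given in the sources used here, so the counts of Cebpd are uncertain to that extent.

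Zbtb16 encodes PLZF, a zinc finger repressor best known in innate-like lymphocytes and strongly induced by steroids in other tissues (chromosome 9, 48654297 to 48836222). It was scarce, with 33, 36 and 33 counts in conditioned-medium libraries and 32, 37 and 38 counts in untreated libraries. These were 1.08, 1.18 and 1.14 CPM against 1.34, 1.53 and 1.52 CPM, and the groups did not overlap. Its log2 fold change was -0.37 (SE 0.22, adjusted p = 0.255), with a 95% interval of -0.86 to 0.13.

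The third set acts in signal transduction. Sgk1, a kinase named for its induction by serum and glucocorticoids, is the gene with the full receptor motif shown above (chromosome 10, 21882184 to 21999903). It had 148, 143 and 156 CPM in conditioned-medium wells and 262, 263 and 281 CPM in untreated wells. No conditioned-medium well came near the untreated range. It was 1.81-fold lower, a log2 fold change of -0.85 with an SE of 0.05 (adjusted p = 4.35e-06).

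Irs2, an adaptor of the insulin and IGF receptors, had 18.8, 21.4 and 14.8 CPM with conditioned medium and 29.1, 28.8 and 23.9 CPM in untreated wells (chromosome 8, 10984681 to 11008458). The well numbered 3 was again the lowest of each group. It was 1.49-fold lower, a log2 fold change of -0.57 with an SE of 0.13 (adjusted p = 0.00941).

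Rgs2, a regulator that switches off Gq signalling, had 115, 113 and 110.2 CPM in conditioned-medium wells and 120.0, 121 and 126 CPM in untreated wells (chromosome 1, 143999338 to 144004161). The groups did not overlap, but the gap of 0.06 on the log2 scale was as small as the range within a group (0.06 and 0.07). Its log2 fold change was -0.12 (SE 0.04, adjusted p = 0.0583), a value 1.09-fold lower that missed the threshold. With the replicate block, whose pairing was drawn from these same libraries, the edgeR adjusted p was 0.0345.

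Glul encodes glutamine synthetase, which makes glutamine from glutamate and ammonia (chromosome 1, 153899944 to 153909723). It had 624, 633 and 530.0 CPM with conditioned medium and 339, 328 and 316 CPM in untreated wells. All conditioned-medium wells lay far above the untreated range. Its start overlaps Teddm2 on the opposite strand, which had 9 to 15 counts a library. Glul rose 1.82-fold, a log2 fold change of 0.86 with an SE of 0.07 (adjusted p = 2.75e-05).

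Changes beyond 1.5-fold were tested with glmTreat. Tsc22d3, Klf9 and Glul rose and Sgk1 and Anxa1 fell by more than 1.5-fold, 5 of the 9 genes tested, against 3.49% of all tested genes (adjusted p = 7.38e-05, 0.0114, 0.0121, 0.00248 and 0.0415). The genes were chosen with results of these wells known, so nothing is read from that share. Leaving out 1 library gave 2 to 5 such genes. The count was 3 without conditioned-medium replicate 1 (Tsc22d3, Klf9 and Sgk1), 3 without conditioned-medium replicate 2 (Tsc22d3, Sgk1 and Anxa1) and 2 without untreated replicate 2 (Tsc22d3 and Sgk1). Anxa1 was the least steady of the 5 in these fits, which did not pair the wells. It also missed the threshold without conditioned-medium replicate 3 (adjusted p = 0.0856), without untreated replicate 1 (adjusted p = 0.154) and with the total count alone (adjusted p = 0.0927), which left 4 genes each time. With the replicate block, which pairs wells by number, Anxa1 passed (glmTreat adjusted p = 2.01e-06). That pairing was drawn from these same libraries, so the pass is no separate support.

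Compared per exon length, as TPM (counts per length, scaled to one total for every library) computed from the counts and the deposited lengths, the 10 genes spanned a wide range of levels. In conditioned-medium wells Glul was highest at 476 ± 42.7 TPM (SD, n = 3, as for all TPM here), followed by Anxa1 at 239 ± 37.6 and Tsc22d3 at 134 ± 5.81 TPM. Rgs2 at 94.0 ± 2.14, Sgk1 at 91.8 ± 4.88 and Cebpd at 82.4 ± 18.6 TPM came next, and their wells overlapped, so these 3 have no order. Fkbp5 at 15.5 ± 0.538, Klf9 at 12.5 ± 0.507, Irs2 at 8.76 ± 1.52 and Zbtb16 at 0.649 ± 0.0235 TPM were the lowest, each clear of the next. In untreated wells Anxa1 led at 454 ± 70.6 TPM, ahead of Glul at 251 ± 12.7, Sgk1 at 158 ± 3.54 and Rgs2 at 97.7 ± 1.23 TPM. Tsc22d3 at 59.6 ± 2.86 and Cebpd at 49.3 ± 8.15 TPM overlapped there. Irs2 had 12.5 ± 1.55, Klf9 6.47 ± 0.119, Fkbp5 3.48 ± 0.207 and Zbtb16 0.801 ± 0.0575 TPM. Fkbp5 was thus below Klf9 and Irs2 in untreated wells and above both with conditioned medium, and Glul stood above Anxa1 only with conditioned medium.

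The genes also differed in how tightly their wells agreed. The coefficient of variation over 3 wells was 22.0% with conditioned medium and 18.4% without it for Cebpd, 16.6% and 14.1% for Anxa1, and 18.2% and 10.8% for Irs2. For the other 7 genes it ran from 2.13% to 9.56% and from 2.71% to 7.40%. Among them Zbtb16 (4.39% and 7.40%) had 32 to 38 counts a library, too few to read its values as tight agreement. In these 3 variable genes the wells numbered 3 deviated alike in both groups: upward by 0.34 and 0.29 on the log2 scale for Cebpd, and by -0.27 and -0.24 for Anxa1 and -0.29 and -0.19 for Irs2. Within wells of the same number the log2 difference of these 3 genes was steadier, at 0.62, 0.65 and 0.72 for Cebpd, -1.09, -0.85 and -1.02 for Anxa1, and -0.63, -0.43 and -0.69 for Irs2. This did not hold for every target gene. For Tsc22d3 the wells numbered 2 deviated in opposite directions (0.08 with conditioned medium and -0.06 without it). For Klf9 those numbered 3 did so (-0.07 and 0.06). Within wells of the same number, Rgs2 had log2 differences of -0.06, -0.11 and -0.20 and Zbtb16 of -0.31, -0.37 and -0.42. Their sign adds nothing, since groups that do not overlap give 1 sign under any pairing. Without both libraries numbered 3, the counts stayed at 4 higher, 3 lower and 5 beyond 1.5-fold.

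**Figure D2:**
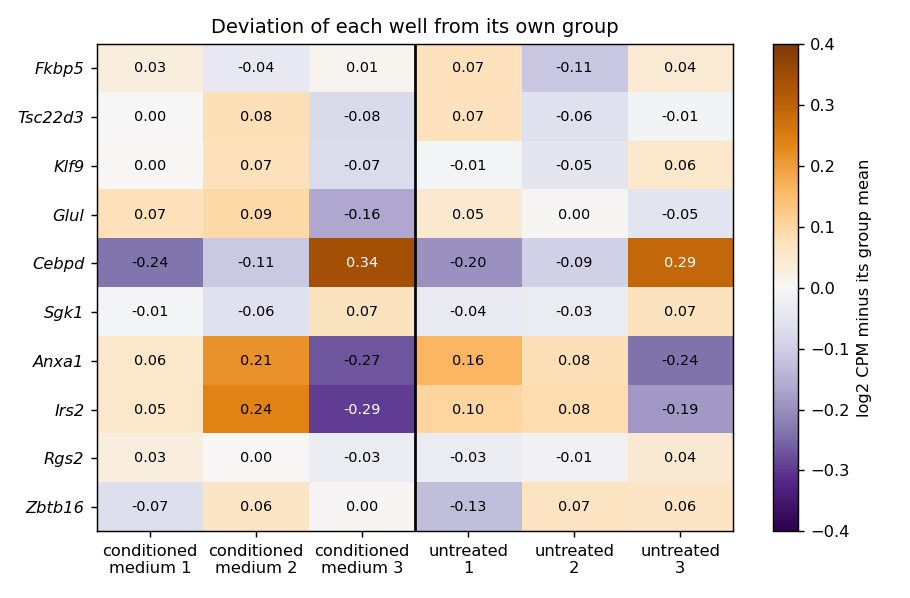
Deviation of each well from the mean of its own group on the log2 CPM scale, with genes in rows and wells in columns, conditioned medium on the left of the line and untreated on the right. Wells numbered 3 are high for Cebpd (0.34 and 0.29) and low for Anxa1 (-0.27 and -0.24) and Irs2 (-0.29 and -0.19) in both groups.

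Each target gene was set beside other genes listed under its family name, not all of which need share its domains. Of 39 such genes tested, 8 rose and 10 fell. The called share was 46.2%, against 27.9% of all tested genes. This list was drawn up with earlier results of these wells known, so nothing is read from the share. Of 5 other Fkbp genes, Fkbp2 fell by 0.22 on the log2 scale (adjusted p = 0.0147) and 4 did not pass the test, with values of -0.11 (Fkbp3) to 0.04 (Fkbp1a). Fkbp4, the co-chaperone that exchanges with Fkbp5 on the receptor, had 52.5, 57.1 and 51.8 CPM with conditioned medium and 57.1, 55.5 and 57.6 CPM without it (log2 fold change -0.08, adjusted p = 0.307). The 3 other Tsc22d genes had log2 fold changes of -0.09 to 0.11 and edgeR adjusted p of 0.110 to 0.617, and 1 of them, Tsc22d4, had an unadjusted p under 0.05 (0.0403). Near Fkbp5 and Tsc22d3, then, no listed relative had a change of like size.

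Other families did move. Of 8 other Klf genes, 5 rose (Klf3, Klf7, Klf10, Klf11 and Klf13) and 3 did not pass the test, and Klf11 had a log2 fold change of 0.91 (9.17 ± 0.557 CPM with conditioned medium and 4.88 ± 0.379 CPM without it, adjusted p = 0.000298), close to that of Klf9. Of 7 other annexins, 5 fell and 1 rose. Anxa4, a calcium-dependent membrane-binding protein, had 183, 199 and 178 CPM with conditioned medium, against 364, 364 and 363 CPM without it, a log2 fold change of -0.96 with an SE of 0.05 (adjusted p = 1.99e-06), beside the -0.98 of Anxa1. Anxa6 rose, with a log2 fold change of 0.32 (adjusted p = 0.00282). Sgk3 fell with Sgk1, by 0.25 on the log2 scale (adjusted p = 0.0153).

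Of 7 other Rgs genes, 3 fell and 4 did not pass the test. Rgs1 was 1.80-fold lower (14.6 ± 3.36 CPM with conditioned medium and 26.3 ± 4.43 CPM without it, adjusted p = 0.00505) and Rgs18 was 1.57-fold lower (adjusted p = 7.26e-05). Of 5 other Cebp genes, Cebpg rose. Cebpb, encoding C/EBP beta and also listed below among further induced genes, had 120, 134 and 156 CPM with conditioned medium and 129, 86.9 and 101 CPM without it, and the groups overlapped (log2 fold change 0.37, adjusted p = 0.0751). Of its exon length, 20.7% lies opposite exons of Tmem189, so its counts are uncertain. Of 3 other Zbtb genes, Zbtb20 rose. Irs1, the sister adaptor of Irs2, was too low to test, with 7, 6 and 8 counts against 4, 3 and 1.

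**Figure D3:**
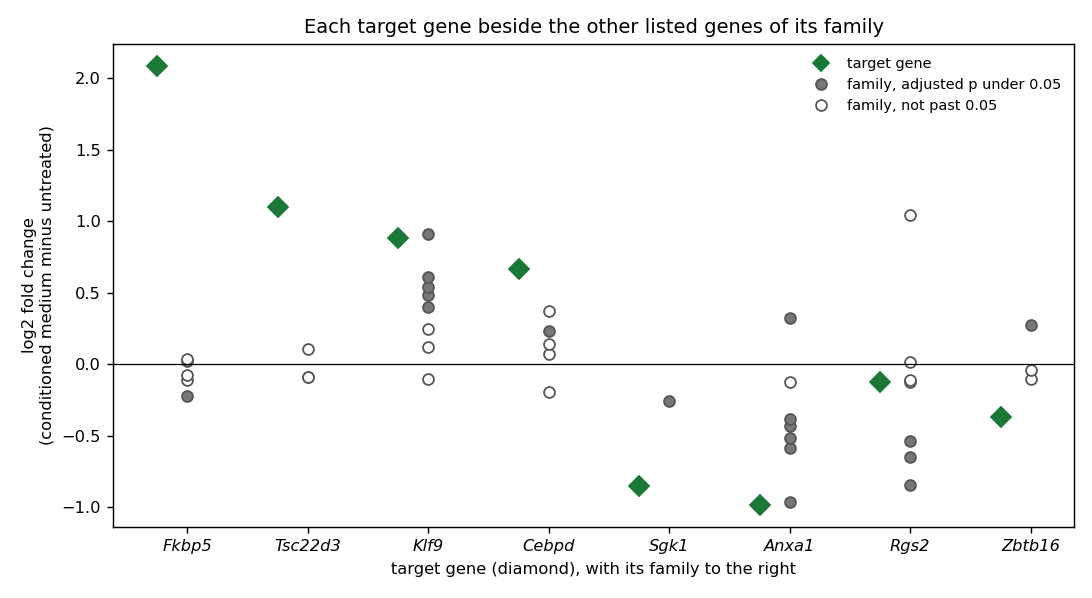
Log2 fold change (conditioned medium minus untreated) of each target gene, drawn as a green diamond, with the other tested genes of its listed family as circles to its right, filled where adjusted p was under 0.05 (edgeR). Klf11 at 0.91 stands beside Klf9 at 0.88 and Anxa4 at -0.96 beside Anxa1 at -0.98, whereas no Fkbp or Tsc22d relative exceeds 0.22 in size; Fkbp5 carries no test.

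The receptor itself did not pass the test. Nr3c1, the glucocorticoid receptor gene, had 104, 108 and 108 CPM with conditioned medium and 99.0, 109 and 107 CPM without it, with overlapping groups. Its log2 fold change was 0.02 (SE 0.05, adjusted p = 0.766), with a 95% interval of -0.09 to 0.13. Hsd11b1, the enzyme that regenerates active glucocorticoid inside cells, was scarce at 0.859 ± 0.225 CPM with conditioned medium and 1.06 ± 0.493 CPM without it (SD, n = 3 each; log2 fold change -0.31, adjusted p = 0.594). The mineralocorticoid receptor gene Nr3c2 and Hsd11b2, which inactivates glucocorticoids, were too low to test.

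Of 31 genes of the receptor pathway, 29 were tested, and 3 rose and 8 fell, with a median log2 fold change of 0.02. The called share was 37.9%, against 27.9% of all tested genes. Since this list was also drawn up with earlier results known, nothing is read from the share. The called changes ran from -0.31 to 0.64 on the log2 scale. Without untreated replicate 1 the number that rose was 1, and with the total count alone it was 7. The receptor's chaperone genes Hsp90ab1 and Hsp90aa1 fell by 0.31 and 0.29 on the log2 scale. Hsp90ab1 had 733, 752 and 698 CPM with conditioned medium, against 868, 909 and 929 CPM without it (adjusted p = 0.00122). Abcb1a, a drug and steroid efflux pump, rose 1.56-fold to 5.42 ± 0.511 CPM, against 3.48 ± 0.573 CPM (adjusted p = 0.0142). The related pump gene Abcb1b was more abundant and fell, at 48.1 ± 0.585 CPM against 55.9 ± 1.83 CPM (log2 fold change -0.22, adjusted p = 0.00619). Ipo13, a nuclear import receptor, rose 1.25-fold (adjusted p = 0.00193).

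Among 39 further genes known as glucocorticoid-induced, 33 were tested, and 16 rose, 2 fell (Gadd45a and Sesn1) and 15 were not called. Their median log2 fold change was 0.34, against 0.01 over all tested genes. Of the tested genes of the list 54.5% were called, against 27.9% of all tested genes. The list was drawn up with earlier results of these wells known, so nothing is read from that share. Per1, a clock repressor gene with direct receptor control, had 56.4, 58.1 and 56.2 CPM with conditioned medium, against 32.1, 30.6 and 30.9 CPM without it. The groups were far apart, and it rose 1.82-fold (log2 fold change 0.87, SE 0.05, adjusted p = 2.34e-06). Mt1, a metallothionein gene, rose 1.69-fold to 103 ± 12.6 CPM, against 61.2 ± 5.06 CPM (adjusted p = 0.00029). Mt2 was too low to test, with 5, 6 and 6 counts against 2, 0 and 2. Of the 2 that fell, Gadd45a was 1.80-fold lower, at 13.5 ± 2.43 CPM against 24.4 ± 3.79 CPM (adjusted p = 0.00224). Sesn1 was 1.19-fold lower (adjusted p = 0.00463).

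Dusp1, a MAP kinase phosphatase gene, had 17.5, 18.6 and 16.9 CPM with conditioned medium and 15.6, 14.3 and 11.9 CPM without it, and rose 1.27-fold (adjusted p = 0.0303). Zfp36, whose product destabilises cytokine mRNA, had 124 ± 6.75 CPM with conditioned medium and 123 ± 5.06 CPM without it (log2 fold change 0.01, adjusted p = 0.928). Nfkbia, the NF-kB inhibitor gene, had 142 ± 15.9 CPM and 148 ± 14.3 CPM (log2 fold change -0.06, adjusted p = 0.671). Stab1, a scavenger receptor gene, rose 2.09-fold, at 3444, 3288 and 3729 CPM with conditioned medium and 1669, 1599 and 1739 CPM without it (adjusted p = 2.95e-06). Some other genes of the list rose by more. The haemoglobin scavenger receptor gene Cd163 had 68.2, 66.7 and 75.1 CPM with conditioned medium, against 4.77, 5.16 and 8.54 CPM without it (log2 fold change 3.50, adjusted p = 1.1e-06). The decoy receptor gene Il1r2 had 5.12, 4.83 and 3.17 CPM, against 0.502, 0.702 and 0.722 CPM (log2 fold change 2.76, adjusted p = 7.63e-05). Ddit4, an inhibitor of mTOR signalling, had 12.2, 10.6 and 10.3 CPM, against 3.60, 3.59 and 3.21 CPM (log2 fold change 1.67, adjusted p = 1.26e-05).

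Of 28 genes listed as repressed by glucocorticoids in activated macrophages, 23 were tested, and 7 rose and 9 fell, with a median log2 fold change of -0.20. The called share was 69.6%, against 27.9% of all tested genes. Nothing is read from it, since this list too was drawn up with earlier results known. Tnf, the tumour necrosis factor gene, had 8.14, 7.98 and 11.3 CPM with conditioned medium and 27.3, 27.2 and 33.1 CPM without it (log2 fold change -1.68, adjusted p = 2.78e-05). The chemokine genes Ccl5 and Cxcl10 fell by 1.80 and 1.79 on the log2 scale (adjusted p = 0.000186 and 0.00201). Il1b, the interleukin-1 beta gene, rose, with 17.7, 15.7 and 20.5 CPM against 4.31, 5.45 and 4.29 CPM (log2 fold change 1.94, adjusted p = 1.08e-05). Ccl2, Ccl7, Cxcl2, Ptgs2, Vcam1 and Edn1 also rose, and Il1a, Il12b, Ccl3, Ccl4, Mmp12 and Icam1 also fell.

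**Figure D4:**
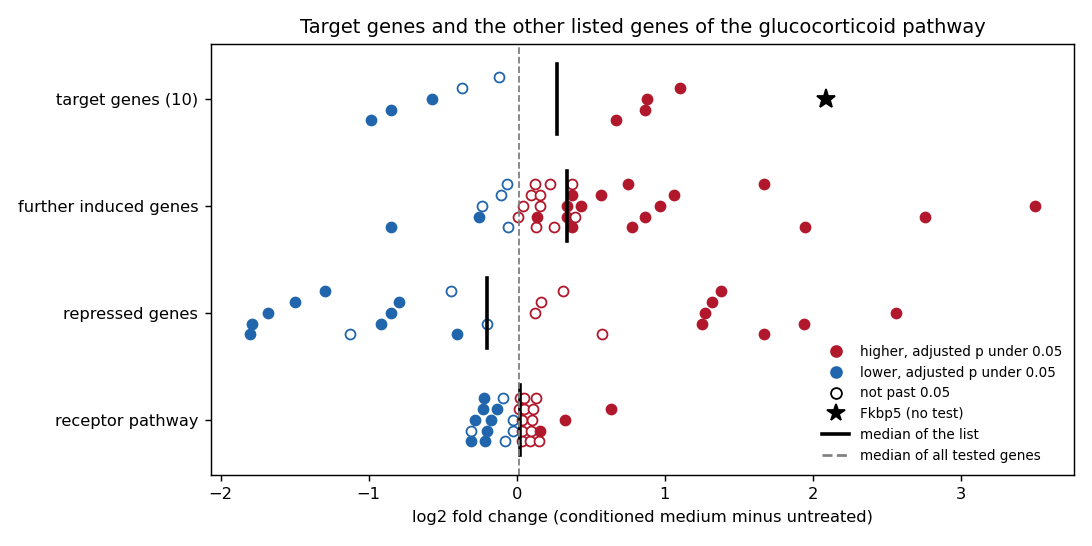
Log2 fold change (horizontal axis, conditioned medium minus untreated) of the 10 target genes and of the tested genes of 3 further lists, filled where adjusted p was under 0.05 (edgeR), with black bars at list medians and the dashed line at the median of all tested genes (0.01). The target genes split into 5 positive and 5 negative values, the further induced genes have a median of 0.34, the repressed genes -0.20 and the receptor pathway genes 0.02. The bar of the target genes, at 0.27, takes in Fkbp5, whose rise chose the list. Without Fkbp5 the median is -0.12.

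Markers of other cells are given because some moved with the groups. Mast cell and basophil markers summed to 3.30 to 7.85 CPM with conditioned medium and 13.4 to 20.6 CPM without it, and 4 of 4 tested fell, with Fcer1a too low to test. Dendritic cell markers summed to 8.57 to 13.9 CPM against 18.1 to 25.4 CPM, and 2 of 4 tested fell. Neutrophil markers summed to 447 to 531 CPM against 355 to 511 CPM, with 1 of 8 higher and 1 lower. T and NK cell markers apart from Cd4, all too low to test, summed to 0.310 to 0.492 CPM against 0.521 to 0.867 CPM, and Ncr1 was at 0 with conditioned medium. Cd4 did not pass the test (163 ± 47.6 CPM with conditioned medium and 138 ± 29.7 CPM without it, SD, n = 3 each). B cell markers summed to 10.2 to 15.7 CPM against 13.2 to 16.1 CPM, fibroblast markers to 26.8 to 82.3 CPM against 13.3 to 59.7 CPM, and erythroid markers to at most 0.263 CPM against 0.251 CPM, with Hbb-bt at 0 in every well. The part of these cells in the levels of Anxa1 and the other target genes was not tested.

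Over the 6 wells, the genes with the pattern most like that of Fkbp5 were Mtus1, Scamp1, Egln1, Tgfbrap1 and Ipmk, among 9255 genes with a mean of at least 5 CPM. Their Pearson correlations of log2 CPM with Fkbp5 were 0.9985 to 0.9995. With 2 groups of 3 wells, such a value mostly reflects the difference between the groups and is a description only. Mtus1, a microtubule-associated protein gene, had 66.8, 60.2 and 66.4 CPM with conditioned medium and 17.1, 15.2 and 16.9 CPM without it, and so shared the lower second well of each group with Fkbp5. Egln1, the oxygen-sensing prolyl hydroxylase gene, had 57.8, 57.7 and 58.7 CPM, against 42.4, 41.1 and 42.0 CPM. Among the target genes, Tsc22d3 had a correlation of 0.995, Klf9 of 0.993, Glul of 0.978 and Cebpd of 0.825, and Sgk1 had -0.989, Anxa1 -0.938, Rgs2 -0.899 and Irs2 -0.857.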

How the data were processed

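RNA was measured in 6 libraries, 3 per group, grouped by the treatment label. The deposited table holds raw counts per gene and exon lengths. Per the submitters' processing notes, the authors aligned reads to GRCm38 with HISAT2 and counted them with featureCounts; the sources used here give no versions, strand setting or multi-mapping setting. Symbols came from GENCODE M21 by identifier (55240 of 55421 genes).

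Genes kept by filterByExpr were scaled by TMM and compared with edgeR 4.0.16 (limma 3.58.1, R 4.3.3), group alone in the design; DESeq2 1.42.0 and limma-voom were alternatives. SE came from the F statistic. The scripts were tested on simulated data. Members and lists were chosen with earlier results of these data known. Named genes were the 10 targets, up to 4 called genes per other list with the largest change and at least 1 CPM, fixed genes of interest and the 5 most like Fkbp5; other genes were named after their values were seen.

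Libraries of a group differed by more than sampling noise (chi-square per degree of freedom 3.89 to 15.0). The value was 3.89 (untreated) and 3.99 (conditioned medium) between libraries numbered 1 and 2. It was 10.5 to 15.0 for pairs that held a library numbered 3. A library with 0 counts of a gene allows up to 3 counts, or 0.0999 to 0.124 CPM, for counting error only. Replicate numbers are shared by the groups. Deviations from group means had same-number correlations of 0.376, 0.204 and 0.397 and others of -0.360 to 0.0659, so the numbers were taken to pair the wells. This pairing comes from the data, not from the labels. Deviations from a mean of 3 wells sum to 0, so the same-number and other correlations are not independent.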

Additional observations from a re-analysis of the deposited data

How the results depend on the processing

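All 10 target genes kept their direction in all 150 values over 15 alternatives (RLE or no scaling, no filter, a mean of at least 1 CPM, DESeq2, limma-voom, the replicate block, each library left out, both libraries numbered 3 left out and equal depth, the last pair chosen after seeing the data), and 144 kept their side of the threshold or, for Fkbp5, stayed within 1 SD. Cebpd had log2 fold changes of 0.48 to 0.83 with 1 library left out, and its adjusted p reached 0.0574. Rgs2 passed with RLE scaling (-0.13, adjusted p = 0.0485), a mean of at least 1 CPM (-0.12, 0.0479), the replicate block (-0.12, 0.0345) and equal depth (-0.12, 0.0454); over its alternatives the adjusted p ran from 0.0345 to 0.255. Target genes beyond 1.5-fold numbered 5, 4 with the total count alone (without Anxa1) and 2 to 5 with 1 library left out, Anxa1 being lost in 4 of those 6 fits. The replicate block changed no other call of a target gene. The cause of these shifts was not tested. With libraries scaled by their totals alone, 2656 genes rose, against 1749 with TMM, and 7 receptor pathway genes rose, against 3; the median of all genes was then 0.07 (log2), against 0.01. With 1 library left out, 1146 (untreated replicate 2) to 1653 genes rose, 1160 without conditioned-medium replicate 1, and 1 (untreated replicate 1) to 3 receptor pathway genes rose. The block called 5023 genes, against 3861. Depth limits Zbtb16 most, at 32 to 38 counts a library.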
